A study of Mus musculus with 6 samples.

Results

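The MYC and MAX network is a set of basic helix-loop-helix leucine zipper proteins, and 10 of its genes were followed here among 20300 genes measured in dendritic epidermal T cells (DETC). The 10 members were listed by name, but with earlier results of these data known. They were the MYC family genes Myc and Mycn, the shared partner Max, the MAX-binding repressors Mxd1, Mxd4, Mxi1, Mnt and Mga, the MAX-like factor Mlx, and Odc1, a target gene often used as a readout of MYC. The samples were Ahr-ko DETC (3 arrays), in which both Ahr alleles, coding for the aryl hydrocarbon receptor, were knocked out, and Ahr-het DETC (3 arrays) from heterozygous littermates, which also carried 1 knockout allele. All mice belonged to the germline strain B6.129-Ahrtm1Bra/J, so that every cell of an Ahr-ko mouse lacked the receptor and no genuine wildtype was measured. Epidermis was taken from the back and the belly of mice of both sexes at the age of 2 weeks. DETC were sorted by antibodies to the γδ TCR and the Vγ3 TCR to a purity of 90 to 98 %, and RNA from 2 to 3 mice was pooled for each array.

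DETC are γδ T cells that settle in mouse epidermis before birth and stay there as resident cells. MYC binds DNA as a pair with MAX, mostly at E-box sequences, and raises the transcription of genes for ribosome production, nucleotide synthesis, glycolysis and polyamine synthesis. The MXD proteins, MNT and MGA compete for MAX and recruit repressor complexes to the same sequences, while MLX pairs with some of the repressors and with the glucose sensors MLXIP and MLXIPL. In T cells MYC is known to be induced by the TCR and by cytokines such as IL-2 and IL-15. The aryl hydrocarbon receptor is itself a basic helix-loop-helix factor that binds DNA together with ARNT.

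Because the members act on each other at E-boxes, their own promoters were searched for the E-box CACGTG, which reads the same on both strands. RefSeq promoters of the build GRCm38.p6, reaching from 250 bases before to 50 bases after a start site, were found for 9 of the 10 members. Myc was not among them. The E-box stood in the promoters of 4 of these 9 members, and in 7.15 % of all 32851 promoters of this length. The windows are given 5′ to 3′ on the strand of the gene, with the E-box in capitals. All 4 belong to members that did not pass the test between the genotypes. As only Odc1 of the 9 passed it, this says nothing about the E-box.
Max (chr12:76962234-76962263, minus strand, E-box at position -3): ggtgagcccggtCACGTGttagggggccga
Mlx (chr11:101087238-101087267, plus strand, E-box at position -40): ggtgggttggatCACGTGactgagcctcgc
Mnt (chr11:74830789-74830818, plus strand, E-box at position -123): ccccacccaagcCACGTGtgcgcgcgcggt
Mxd4 (chr5:34187912-34187941, minus strand, E-box at position -219): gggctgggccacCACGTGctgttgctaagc
The core of the binding site of the aryl hydrocarbon receptor with ARNT, GCGTG on either strand (read as CACGC on the other), stood in the promoters of 5 of the 9 members, namely Max, Mga, Mnt, Mxd1 and Odc1, and in 32.4 % of all promoters. The core was repeated in the promoters of Max, Mga and Mxd1, which did not pass the test between the genotypes. Odc1, which passed it, held the core at 3 places, shown in capitals.
Odc1 (chr12:17544681-17544710, plus strand, core at position -179): ggtgatgtggtgcGCGTGcgcaggcctgcc
Odc1 (chr12:17544703-17544732, plus strand, core at position -157): ggcctgccgcaggGCGTGtccgacacgagg
Odc1 (chr12:17544759-17544788, plus strand, core at position -101): gcgggtgggtgggCACGCgctgcgccccgc
Positions count from the start site at 0 to the first base of the match. A match describes the letters only, and binding was not measured.

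Levels are log2 values as normalized by the authors with RMA, a method that combines the probes of a gene after quantile normalization. Values of different genes are not comparable on arrays, so each gene was set only against itself between genotypes. A level was taken as above background where it exceeded 95 % of the values of 1391 odorant and pheromone receptor genes on the same array, a limit between 7.55 and 7.63 for Ahr-ko and between 7.46 and 7.56 for Ahr-het DETC. On these arrays 57.4 to 58.9 % and 58.5 to 60.2 % of all genes were above it in Ahr-ko and Ahr-het DETC. The small number of arrays limits the precision of every value, and as nothing states how the pools were assigned, p-values measure the spread between these pools only. The Ahr probe set read 10.00, 10.40 and 10.39 in Ahr-ko and 10.77, 10.62 and 10.72 in Ahr-het DETC (log2 fold change -0.44 ± 0.13 SE, limma adjusted p = 0.177). Whether its probes lie in the deleted region is not given in the sources used here, so this value does not check the labels.

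Myc, the central activator of the network, was the member with the largest difference between the genotypes. Its level was 11.54, 11.71 and 11.67 in Ahr-ko DETC, against 8.38, 9.93 and 9.79 in Ahr-het DETC. The groups did not overlap: the lowest Ahr-ko value exceeded the highest Ahr-het value by more than 1 log2 unit. The means were 11.64 ± 0.086 in Ahr-ko and 9.37 ± 0.85 in Ahr-het DETC (SD, n = 3 each), a log2 fold change of 2.27 ± 0.36 (SE), or 4.83-fold with a 95 % interval of 2.73 to 8.55 (limma adjusted p over all genes = 0.0118). Myc was above background on all 6 arrays, by 4.05 on average in Ahr-ko and by 1.84 in Ahr-het DETC.

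The Ahr-ko arrays spread over a range of 0.16 in Myc and the Ahr-het arrays over 1.54. The low array was Ahr-het 1, which was 0.93 above its background limit. The SD among Ahr-het arrays was larger for Myc than for 99.5 % of the genes above background. Without this array the log2 fold change was 1.78 and the adjusted p 0.000222. Leaving out Ahr-ko 2 or Ahr-ko 3 kept the size of the change (2.24 and 2.26) but brought the limma adjusted p to 0.052 and 0.0709. With arrays of equal replicate number compared directly, Myc was higher in Ahr-ko DETC by 3.16, 1.78 and 1.88. As the groups did not overlap, any pairing would give this direction.

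**Figure D1:**
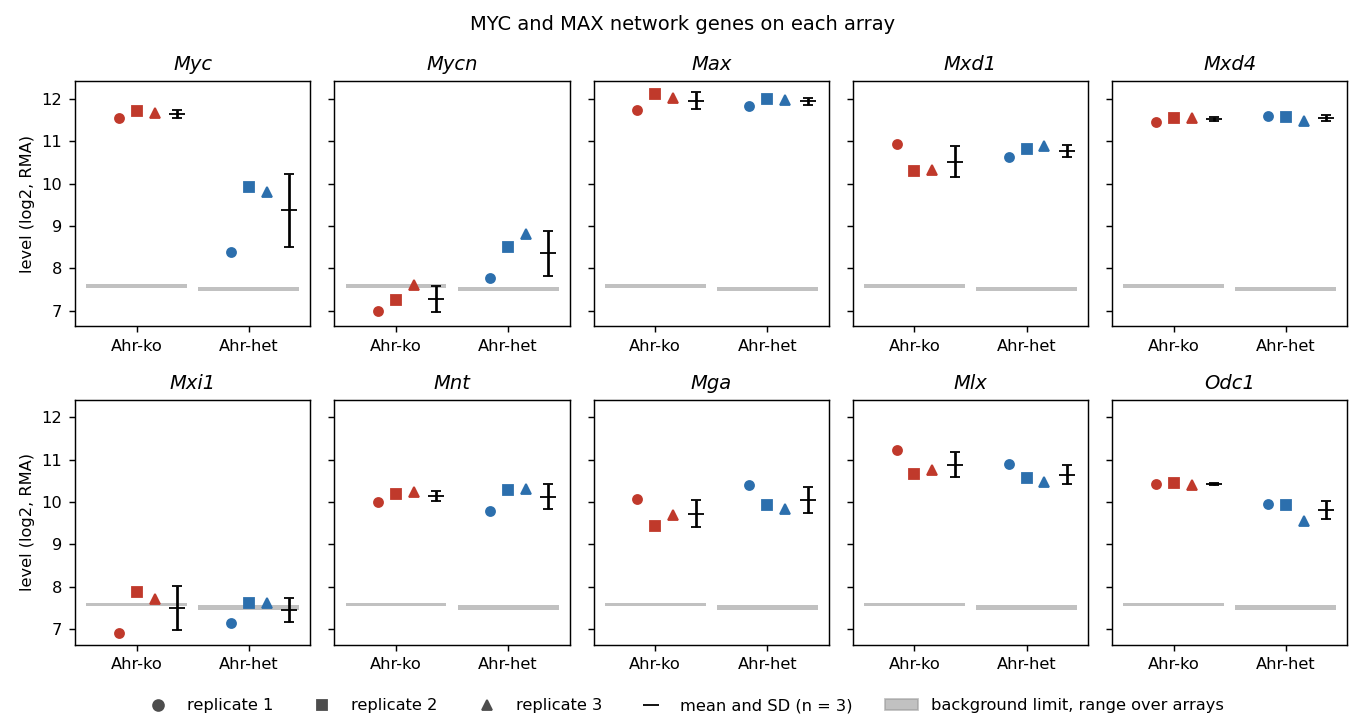
Log2 RMA level of the 10 network genes on each array (points, by replicate number) in Ahr-ko (red) and Ahr-het DETC (blue), with mean and SD (n = 3) and the range of the background limit (grey); the axis is shared, but levels of different genes are not comparable. Myc lies between 11.54 and 11.71 on the Ahr-ko arrays and between 8.38 and 9.93 on the Ahr-het arrays, while Mycn lies lower on every Ahr-ko array than on any Ahr-het array.

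Mycn, the paralogue best known from embryonic and neural tissue, differed in the opposite direction. Its level was 7.0, 7.24 and 7.60 in Ahr-ko DETC, against 7.77, 8.49 and 8.80 in Ahr-het DETC. These groups did not overlap either, although all values were low: Mycn was above background on 1 of 3 Ahr-ko arrays and on 3 of 3 Ahr-het arrays. The means were 7.28 ± 0.31 and 8.36 ± 0.53 in Ahr-ko and Ahr-het DETC (SD, n = 3 each), and the log2 fold change of -1.08 ± 0.26 (SE, 95 % interval -1.68 to -0.47) missed the threshold over all genes (limma adjusted p = 0.0843). A fit that also took the shared numbering of the replicates as a block called it (adjusted p = 0.000837), the differences of equal numbers being -0.77, -1.25 and -1.20. The Mycn call also moved with the array left out: without Ahr-het 1 the log2 fold change was -1.37 and the adjusted p 0.00871, while without any other single array the adjusted p was 0.142 or higher. With arrays weighted by their quality it was -1.04 (adjusted p = 0.0111), in a fit that called 8.45 % of all genes. Of the MYC family, Mycl was close to background and averaged a log2 fold change of -0.08 (adjusted p = 0.893).

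Odc1, the rate-limiting enzyme of polyamine synthesis, was the other member past the threshold. Its level was 10.44, 10.45 and 10.41 in Ahr-ko DETC, against 9.95, 9.92 and 9.56 in Ahr-het DETC, again without overlap. The means were 10.43 ± 0.021 in Ahr-ko and 9.81 ± 0.22 in Ahr-het DETC (SD, n = 3 each), a 1.53-fold difference with a 95 % interval of 1.25 to 1.88 (limma adjusted p = 0.0427). As for Myc, the 3 Ahr-ko arrays lay closer together than the 3 Ahr-het arrays. The call was near the threshold, since of the 6 fits that left out 1 array only that without Ahr-het 1 passed (adjusted p = 0.0428). The others gave an adjusted p of 0.0826 without Ahr-ko 1, 0.133 without Ahr-ko 2, 0.166 without Ahr-ko 3, 0.111 without Ahr-het 2 and 0.121 without Ahr-het 3, with log2 fold changes of 0.49 to 0.69 in all 6.

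**Figure D2:**
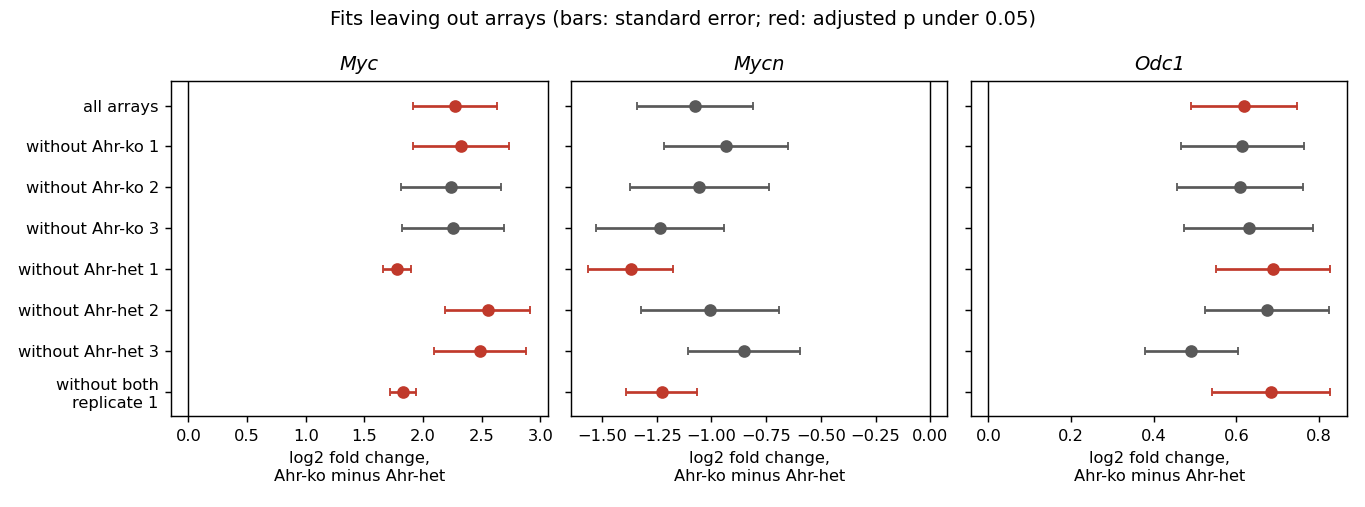
Log2 fold change of Myc, Mycn and Odc1 (Ahr-ko minus Ahr-het, horizontal axis, separate scale for each gene) with standard error, from limma on all arrays and with arrays left out. Direction was the same in all fits shown; red points passed an adjusted p of 0.05, which Myc missed without Ahr-ko 2 or Ahr-ko 3, Mycn reached without Ahr-het 1 or without both replicate 1 arrays, and Odc1 mostly missed.

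Counted together, 2 of the 10 members were higher in Ahr-ko DETC, 0 were lower and 8 did not pass. Over all genes 3.14 % passed, 1.58 % higher and 1.57 % lower. By an unadjusted p under 0.05 in the same limma fit, 2 members were higher and 1 lower in Ahr-ko DETC, where 6.69 % and 6.54 % of all genes were. With the replicate block 2 members were higher and 1 lower, against 3.68 % and 3.9 % of all genes (7.58 % in either direction). The genotypes did not overlap for 2 members that were higher and 1 that was lower in Ahr-ko DETC, as was so for 9.76 % and 8.91 % of all genes. The members were chosen with earlier results of these data known, which limits what these shares can show. They also differ in what they do to transcription, and 10 genes are too few for a share to be read closely.

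Max, the partner that all MYC proteins need, was level between the genotypes. It read 11.73, 12.12 and 12.01 in Ahr-ko DETC and 11.84, 12.01 and 11.97 in Ahr-het DETC. The log2 fold change was 0.01 with a 95 % interval of -0.28 to 0.31, so a change of Max as large as that of Myc lies outside the interval. The same held for the repressors Mxd4 and Mnt. Mxd4 read 11.46, 11.55 and 11.54 in Ahr-ko and 11.60, 11.58 and 11.47 in Ahr-het DETC, and Mnt 10.00, 10.19 and 10.23 in Ahr-ko and 9.79, 10.27 and 10.31 in Ahr-het DETC. Their 95 % intervals were -0.26 to 0.20 for Mxd4 and -0.35 to 0.37 for Mnt.

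Mxd1, an antagonist induced when cells leave the cell cycle, was split by replicate number. It read 10.93, 10.29 and 10.32 in Ahr-ko DETC and 10.62, 10.81 and 10.89 in Ahr-het DETC. Ahr-ko 1 was above and the other Ahr-ko arrays below the whole Ahr-het range, and the log2 fold change was -0.26 (95 % interval -0.68 to 0.16, adjusted p = 0.637). Without both replicate 1 arrays it was -0.55 with a limma adjusted p of 0.0286, in a fit that called 5.65 % of all genes.

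Mga, a large factor that combines a T-box with the MAX-binding domain, read 10.06, 9.43 and 9.70 in Ahr-ko DETC and 10.39, 9.94 and 9.83 in Ahr-het DETC. It was lower in 3 of 3 pairs of equal number, but the groups overlapped and the log2 fold change of -0.32 (95 % interval -0.78 to 0.13) did not pass (adjusted p = 0.578). Mlx had 11.23, 10.66 and 10.76 in Ahr-ko and 10.91, 10.56 and 10.47 in Ahr-het DETC, a log2 fold change of 0.24 (95 % interval -0.18 to 0.65, adjusted p = 0.673). Mxi1, another MXD repressor, was at the background limit, above it on 2 of 3 arrays of each genotype, with 6.90, 7.87 and 7.71 in Ahr-ko and 7.14, 7.62 and 7.62 in Ahr-het DETC. Its interval, -0.55 to 0.63, was wider than those of Max, Mxd4 and Mnt.

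**Figure D3:**
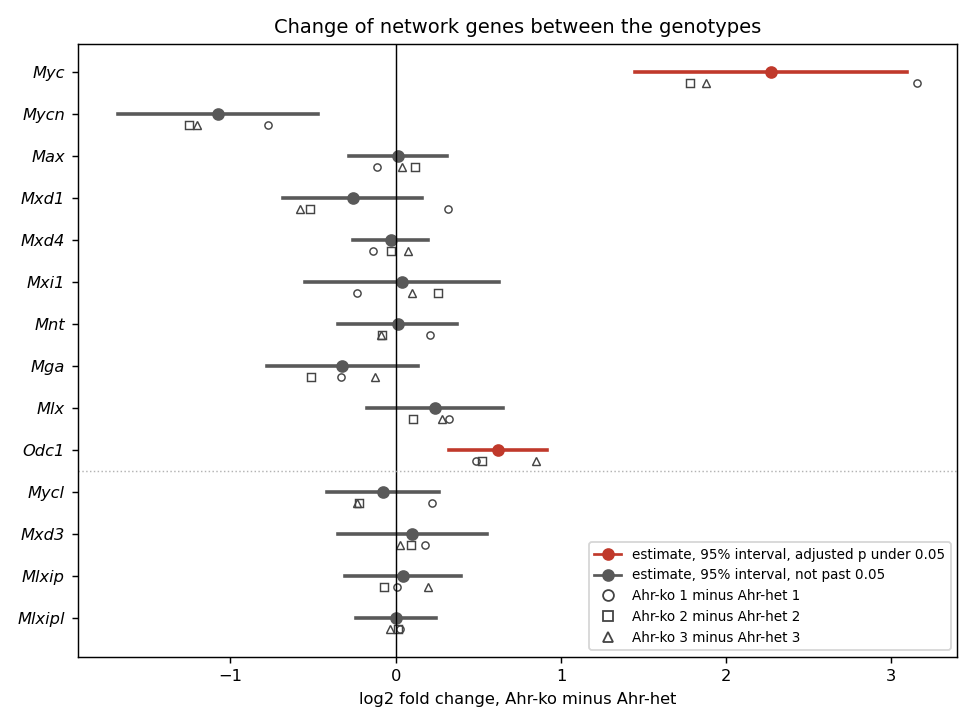
Log2 fold change (Ahr-ko minus Ahr-het, horizontal axis) of the 10 members and, under the dotted line, of 4 other network factors, with the 95 % interval from limma and the differences of arrays of equal replicate number (open symbols). Myc (2.27) and Odc1 (0.62) passed the threshold (red), Mycn (-1.08) has an interval below 0 without passing it, and the other 11 intervals include 0.

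The factors of the network outside these members did not move past the threshold. The MYC antagonist Mxd3 had a log2 fold change of 0.10 and Mlxip, a glucose-sensing partner of MLX, of 0.04. Mlxipl was below background on all 6 arrays. Of 18 measured cofactors that MYC or MXD proteins recruit, 0 were higher and 1 was lower by an unadjusted p under 0.05. Over all genes these shares were 6.69 % and 6.54 %. Of the 18 cofactors, 0 passed the limma test, with or without the replicate block. The brightest of them, Sin3a, the scaffold of the MXD repressor complex, averaged 12.44 in Ahr-ko and 12.62 in Ahr-het DETC. Likewise 0 of 9 partners of the MGA complex passed, also by the unadjusted p and with the block, with Rybp at a log2 fold change of -0.30 and Tfdp1 at -0.07.

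MYC is among the most short-lived proteins, and the genes for its turnover were mostly level in RNA. Of 15 measured, 0 passed in limma and 2 were lower by an unadjusted p under 0.05, where 6.54 % of all genes were. With the replicate block 1 passed, where 7.58 % of all genes did. The last was Huwe1, a ubiquitin ligase of MYC and many other proteins, with a log2 fold change of -0.59 (adjusted p = 0.125, with the block 0.0111). It was named after its values were seen. The kinases Pim1 and Pim2, which stabilize MYC, had log2 fold changes of 0.17 and -0.22 without passing.

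Polyamine metabolism, a list that holds synthesis, breakdown and transport genes but not Odc1, had 1 gene higher and 0 lower among 16 measured. This was Srm, spermidine synthase, which takes the product of ODC1 to spermidine and is itself a known MYC target. Srm read 10.83, 10.53 and 10.88 in Ahr-ko DETC, against 10.15, 9.94 and 10.01 in Ahr-het DETC. The groups did not overlap, and the difference was 1.64-fold (log2 fold change 0.71 ± 0.13 SE, limma adjusted p = 0.0215). Leaving out Ahr-ko 1, Ahr-ko 3, Ahr-het 2 or Ahr-het 3 brought the adjusted p to 0.052, 0.115, 0.115 and 0.0985, with log2 fold changes of 0.65 to 0.82 over the 6 such fits. With the replicate block 3 polyamine genes were higher and 1 lower in Ahr-ko DETC, where 3.68 % and 3.9 % of all genes were. Besides Srm, the higher ones were Sms, spermine synthase, with a log2 fold change of 0.64 (adjusted p = 0.123, with the block 0.0404), and Paox, polyamine oxidase, which was below background on all 6 arrays. The lower one was Amd2, a near copy of the S-adenosylmethionine decarboxylase gene Amd1 whose probes may detect both, with a log2 fold change of -0.90 (adjusted p = 0.614, with the block 0.0097). In all, 12 of the 16 had a log2 fold change above 0, where 50.8 % of all genes did. The median was 0.10, against 0.0038 over all genes. Of the 12, Paox, Arg1, Arg2 and Agmat were below background on all 6 arrays.

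Most ribosome biogenesis genes among the MYC targets had a log2 fold change above 0, but 1 passed the threshold. Of 37 measured, 29 (78.4 %) had a log2 fold change above 0, where 50.8 % of all genes did, and the median was 0.16, against 0.0038 over all genes. Only Wdr74, a factor of the maturing large subunit, passed in limma. It read 10.36, 10.51 and 10.56 in Ahr-ko DETC, against 10.04, 9.86 and 9.92 in Ahr-het DETC (log2 fold change 0.53 ± 0.11 SE, adjusted p = 0.04). By an unadjusted p under 0.05, 12 were higher and 0 lower in Ahr-ko DETC, where 6.69 % and 6.54 % of all genes were. With the replicate block 5 were higher and 0 lower, where 3.68 % and 3.9 % of all genes were. Besides Wdr74 the block called Nhp2, a protein of the RNA-modifying H/ACA particles (log2 fold change 0.67, adjusted p = 0.00423 with the block), Nop2, a ribosomal RNA methyltransferase (0.51, 0.0148), Pno1, needed for the small subunit (0.63, 0.0274) and Polr1a, the large subunit of RNA polymerase I (0.45, 0.0454). The call of Wdr74 was lost without Ahr-ko 2, Ahr-ko 3, Ahr-het 2 or Ahr-het 3, with an adjusted p of 0.126, 0.185, 0.183 and 0.157. Renewed quantile normalization, the use of all probe sets and trend and robust eBayes gave it 0.0554, 0.0744 and 0.0569.

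The metabolic and growth targets moved both ways. Of 37 measured, 25 (67.6 %) had a log2 fold change above 0, where 50.8 % of all genes did. The median was 0.12, against 0.0038 over all genes. In limma 1 was higher (Srm, which is in both lists) and 0 lower. By an unadjusted p under 0.05, 7 were higher and 6 lower, where 6.69 % and 6.54 % of all genes were. With the replicate block 5 were higher and 3 lower, where 3.68 % and 3.9 % of all genes were. The genes named here other than Srm were chosen after their values were seen. Among those higher with the block were Mthfd2, the mitochondrial enzyme of one-carbon metabolism, Ldha, which makes lactate, and the glycolytic enzyme Pgk1. Mthfd2 was higher by 1.03, 0.86 and 0.97 in the pairs of equal number (adjusted p = 0.158, with the block 0.000493). Ldha had a log2 fold change of 0.43 (0.0629, with the block 0.0308) and Pgk1 of 0.42 (0.0841, with the block 0.0363).

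The genes lower with the block were Hk2, Impdh2 and Tfrc, although MYC is known to raise all of them in other cells. Hk2, hexokinase at the entry to glycolysis, read 10.76, 11.53 and 11.52 in Ahr-ko DETC, against 11.66, 12.69 and 12.72 in Ahr-het DETC. Its replicate 1 arrays were low in both genotypes, and the differences of equal numbers were -0.91, -1.17 and -1.19 (adjusted p = 0.149, with the block 0.000341). As its groups did not overlap, any pairing would give this direction. Impdh2, the rate-limiting enzyme of guanine nucleotide synthesis, had a log2 fold change of -1.15 (adjusted p = 0.199, with the block 0.000278), and Tfrc, the transferrin receptor, of -0.47 (0.119, with the block 0.0295).

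Genes that MYC is known to repress showed no call in limma. Of 14 measured, 0 passed and 1 was lower by an unadjusted p under 0.05, where 6.54 % of all genes were. With the replicate block 2 were lower in Ahr-ko DETC, both inhibitors of the cell cycle, where 3.9 % of all genes were lower. Cdkn1a, which encodes p21, read 11.68, 12.97 and 13.08 in Ahr-ko DETC, against 12.18, 13.46 and 13.36 in Ahr-het DETC (log2 fold change -0.42, adjusted p = 0.781, with the block 0.0394). Its direction turned with the keratinocyte covariate (0.20) and without Ahr-ko 1 (0.025). Gadd45a had a log2 fold change of -0.61 (0.364, with the block 0.0183). Klf6, another of the brightest of the list, had a log2 fold change of 0.15. Of 5 targets of the MLX partners 0 passed, also with the block. By an unadjusted p under 0.05, 1 was higher, where 6.69 % of all genes were. The glucose-responsive Txnip was at -0.16 and Klf10 at 0.03.

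**Figure D4:**
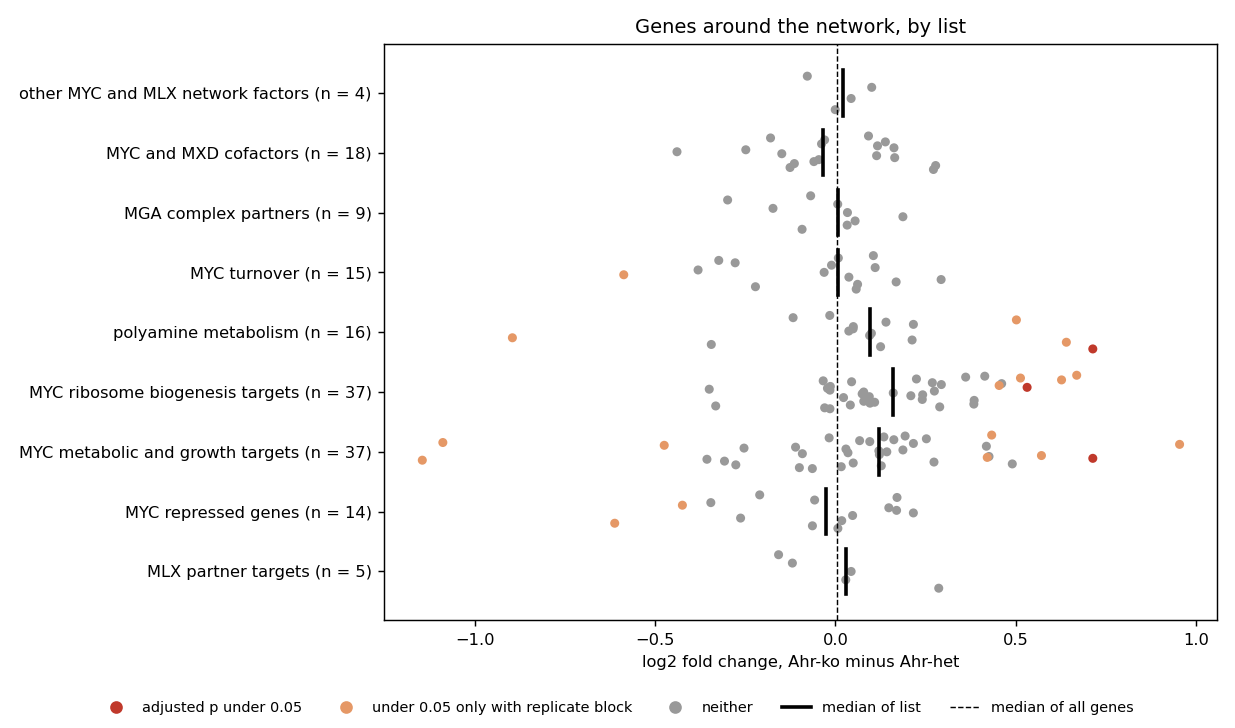
Log2 fold change (Ahr-ko minus Ahr-het, horizontal axis) of each measured gene in the 9 lists around the network, with the median of each list (bar) and of all genes (dashed line); vertical spread within a row only separates the points, and Srm appears in both lists that hold it. Genes past the limma threshold are red, those past it only with the replicate block orange; the ribosome biogenesis list has its median at 0.16 and 29 of 37 points above 0.

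The expression pattern of Myc over the 6 arrays was most like that of Rassf5 (Pearson r = 0.996), Bhlhe40 (0.994), Pkd1l3 (0.994), Flna (0.993) and Vdr (0.992), among 11725 genes above background. As the arrays form 2 separate groups, 335 genes had an r above 0.9, and r is a description only. Of the 5, Bhlhe40, an E-box-binding repressor of lymphocytes, was alone in passing the limma test. It read 11.72, 11.98 and 12.06 in Ahr-ko DETC, against 9.91, 10.92 and 10.72 in Ahr-het DETC (log2 fold change 1.41, adjusted p = 0.0199). The call was lost without Ahr-ko 2, Ahr-ko 3 or Ahr-het 3 (adjusted p = 0.0778, 0.111 and 0.057) and with all probe sets (0.0501). Like Myc it was lowest on Ahr-het 1. Rassf5, a binding partner of RAP1 in lymphocyte adhesion, averaged 12.14 in Ahr-ko and 11.73 in Ahr-het DETC, and Flna, filamin A, 12.56 and 12.02 in Ahr-ko and Ahr-het DETC (adjusted p = 0.0613, with the block 0.0203). Vdr and Pkd1l3 had log2 fold changes of 0.17 and 0.10.

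The marker lists were read beside the results for Myc. The share of DETC among living cells of the epidermis was 2 to 4 % in Ahr-ko and 10 to 15 % in Ahr-het mice, and in such bulk RNA fewer cells of a type and less RNA per cell cannot be told apart. All 14 DETC identity genes were measured, and their mean level was 12.34 to 12.44 on Ahr-ko and 12.13 to 12.22 on Ahr-het arrays. This difference lay mostly in Tyrobp, an adaptor of activating receptors (log2 fold change 2.58): the other 13 genes averaged 12.37 to 12.46 on Ahr-ko and 12.33 to 12.45 on Ahr-het arrays, and 7 of the 14 had a log2 fold change above 0. Proliferation genes (16 of 17 measured) were at 9.84 to 10.44 on Ahr-ko and 9.53 to 9.95 on Ahr-het arrays. Of these, 15 had a log2 fold change above 0, where 50.8 % of all genes did, and the median was 0.41, against 0.0038 over all genes. In limma 1 was higher (Tyms, thymidylate synthase, 0.66), where 1.58 % of all genes were. By an unadjusted p under 0.05, 6 were higher and 0 lower, where 6.69 % and 6.54 % of all genes were. With the block 6 were higher and 0 lower, where 3.68 % and 3.9 % of all genes were.

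Markers of other lymphocytes had higher list means on the Ahr-ko arrays, with members moving both ways. Those of NK cells and innate lymphoid cells (4 of 6 measured) averaged 9.0 to 9.67 on Ahr-ko and 7.84 to 8.17 on Ahr-het arrays, 3 of 4 being higher (Eomes, Ncr1 and Klri2), and Eomes and Ncr1 were below background on all Ahr-het arrays. The other one, Klrb1c (NK1.1), had a log2 fold change of -0.83 (adjusted p = 0.308) and was lower with the replicate block (0.00169). Without Eomes the list averaged 8.62 to 9.43 on Ahr-ko and 8.16 to 8.75 on Ahr-het arrays, which overlap. Those of αβ T cells (all 6 measured) averaged 9.07 to 9.13 on Ahr-ko and 8.59 to 8.66 on Ahr-het arrays, 3 being higher (Cd6, Cd8a and Cd8b1) and 1 lower (Themis). Without Cd6 the list averaged 8.92 to 9.10 on Ahr-ko and 8.72 to 8.84 on Ahr-het arrays, which do not overlap. Those of IL-17 type γδ T cells (all 11 measured) averaged 8.18 to 8.22 on Ahr-ko and 7.62 to 7.87 on Ahr-het arrays, 2 being higher (Ccr2 and Cd163l1), but Il23r, Ccr6 and Il1r1 were below background on all 6 arrays. Without Ccr2 the list averaged 7.90 to 8.00 on Ahr-ko and 7.75 to 7.99 on Ahr-het arrays.

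Markers of cells that do not belong to the lymphocytes overlapped between the genotypes. Keratinocyte genes (all 14 measured) averaged 9.15 to 9.44 on Ahr-ko and 9.28 to 9.54 on Ahr-het arrays, lowest on the replicate 1 array of each genotype, with 1 lower (Dsp, desmoplakin). Langerhans cell and myeloid genes (9 of 10 measured) averaged 7.60 to 7.82 on Ahr-ko and 7.62 to 7.92 on Ahr-het arrays, 0 passing in limma, also by an unadjusted p under 0.05, and Csf1r, Lyz2, Mrc1 and Itgam were below background on all 6 arrays. Dsp had a log2 fold change of -1.22, and without it the keratinocyte list averaged 9.02 to 9.35 on Ahr-ko and 9.06 to 9.37 on Ahr-het arrays. With the mean of the keratinocyte genes, Dsp among them, as a covariate, the log2 fold change of Myc was 2.67 (limma adjusted p = 0.000233). That fit called 8.73 % of all genes, and through Dsp its covariate itself differed in part with genotype. Odc1 stayed past the threshold in that fit, and Mycn and Mga also passed, with log2 fold changes of -0.78 and -0.58. The part of the lymphocyte and proliferation markers in the results for Myc, Mycn and Odc1 was not tested.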

How the data were processed

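For each of 6 Clariom S Mouse arrays 10 ng of RNA from sorted DETC were labelled. The deposited values are log2 levels, which the authors made by RMA. Neither the RMA version nor the probe annotation and its build was given in the labels or the paper. A second deposited table holds the authors' comparison of the genotypes (log2 fold changes, p-values and limma statistics, with limma 3.38.3 by the submitters' processing notes) and was not used.

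The 8694 of 29129 probe sets that carry no gene ID were dropped, and the brightest probe set stood for each of 20300 genes. Genotypes, taken from the labels, were compared with limma 3.58.1 in R 4.3.3 (lmFit, eBayes), with Benjamini-Hochberg adjustment over all genes and a threshold of 0.05, after checking the code on simulated data. No set test was run.

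Members and lists were chosen with earlier results of these data known. Named were all members and other network factors, up to 4 genes past the threshold per list (largest changes) or else the 2 brightest, Ahr, and the 5 genes most correlated with Myc. Of these, 1 gene is not reported here, though it stays in the counts. Genes called only with the replicate block, the marker genes, 1 turnover gene, Arg1, Arg2 and Agmat were named after their values were seen.

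Equal replicate numbers deviated together over genes (correlations 0.572, 0.369 and 0.207, all above 0.1), so they were taken as pairs. Unequal numbers 2 and 3 also correlated (0.236 and 0.336), and the labels do not explain the numbers. Ahr-ko 3 correlated more with Ahr-het 2 (0.236) than with Ahr-het 3 (0.207). Deviations within a genotype sum to 0, so replicate 1 arrays that deviate together can alone make numbers 2 and 3 correlate. The rule therefore cannot settle how numbers 2 and 3 pair. Alternatives were the replicate block, renewed quantile normalization, median centring, a background filter, all probe sets, trend and robust eBayes, array weights, a keratinocyte covariate, and arrays left out. Of 163 listed pathway genes, 10 had no probe set among those tested.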

Additional observations from a re-analysis of the deposited data

How the results depend on the processing

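With limma on all arrays 638 genes, 2 members and 2 pathway genes (Srm and Wdr74) passed. The replicate block, the fit that compares arrays of equal number as pairs, gave 1538 genes, 3 members and 19 pathway genes. Besides the genes given above with their blocked values it changed no call among the members. Array weights gave 1716 genes and 22 pathway genes, the keratinocyte covariate 1773, 13 and 4 members, and leaving out both replicate 1 arrays 1147, 11 and 4 members. With all probe sets and with trend and robust eBayes, 1 member (Myc) and 1 pathway gene passed, as Odc1 reached adjusted p-values of 0.0834 and 0.0556. Leaving out 1 array gave 342 to 644 genes, 0 to 3 members and 0 to 6 pathway genes, where 0 members passed without Ahr-ko 2 or Ahr-ko 3. The lowest count of genes was that without Ahr-ko 3. The cause was not tested. Myc passed in 13 of 15 alternatives, Odc1 in 8 and Mycn in 5, with the direction kept in all.

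These log2 fold changes reversed, none of them past the threshold in limma on all arrays without the block. Max was -0.023 with quantile normalization (-0.070 to 0.13 with 1 array left out). Mnt was -0.0056 with quantile normalization, -0.035 with array weights and -0.086 without both replicate 1 arrays (-0.15 to 0.11). Mxd4 was 0.024 without both replicate 1 arrays. Mlxipl was 0.0059 with quantile normalization, 0.0085 with median centring, 0.025 with array weights and 0.053 with the keratinocyte covariate (-0.047 to 0.054). With that covariate Mycl was 0.055 (-0.24 to 0.017), Mxd3 -0.15 (-0.091 to 0.25) and Cdkn1a 0.20 (-0.84 to 0.025). Klf10 was -0.0017 with quantile normalization (-0.014 to 0.070). With 1 array left out, Mxi1 was -0.15 to 0.34, Mlxip -0.064 to 0.17 and Tfdp1 -0.18 to 0.058. Averaging probe sets was not run, as each member had 1. With genes above background only, Mxi1 and Mlxipl had no value.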
